A study of Mus musculus with 12 samples.

Results

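Thermogenic and beige adipocyte genes were followed through the epididymal white adipose tissue (eWAT) of mice on 4 diets. The set holds 9 genes, named by symbol, out of 22923 genes in the deposited table: Ucp1, Ckb, Cidea, Elovl3, Dio2, Fgf21, Ppargc1a, Ppargc1b and Prdm16. The mice were C57BL/6J males that were given their diets from 5 weeks of age for 16 weeks and were 21 weeks old at sampling. The groups were a normal diet (ND), a high-fat diet (HFD), the HFD with 1.5% (w/w) of an ethanol extract of chrysanthemum leaf (CLE), and the HFD with 0.003% (w/w) of luteolin (LU), a flavone. Each group was represented by 3 mice, chosen by the authors as representative, with 1 mRNA library per mouse and 12 libraries in all. The CLE and LU mice ate the HFD throughout, so HFD was their control, and ND was the control of HFD. RNA came from whole tissue, in which fewer cells of a type and less RNA per cell cannot be told apart.

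Thermogenic adipocytes burn fuel to make heat. In brown fat, and in beige cells that can arise within white depots, uncoupling protein 1 (Ucp1) lets protons leak across the inner mitochondrial membrane. The transcriptional regulators Prdm16 and the PGC-1 coactivators (Ppargc1a and Ppargc1b) promote this programme, Dio2 raises thyroid hormone locally, Cidea coats lipid droplets, Elovl3 elongates fatty acids, Ckb phosphorylates creatine in a futile cycle independent of Ucp1, and Fgf21 is a hormone that acts on adipocytes. Epididymal fat of the mouse is classically a depot that browns poorly.

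Levels are given as FPKM, the fragments of a transcript divided by its length and by the size of the library, summed over the known transcripts of a gene and their assembled variants. Because FPKM is per length, levels of different genes can be set side by side. No read counts were used here and the depth of each library is unknown, so low values carry no counting interval. Differences were tested with limma on log2(FPKM + 1) in 1 fit of all 12 libraries, for the 12766 genes with at least 1 FPKM in at least 3 libraries. A gene was called when its Benjamini-Hochberg adjusted p was under 0.05 and its fold change over 1.5. Fold changes are on that scale, and for genes of low FPKM they are smaller than the ratio of the levels. Of the 9 genes, 7 passed the filter. Ucp1 and Dio2 did not, being under 1 FPKM in every library.

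The tissue labels were matched by adipocyte markers, whose sum over 10 genes lay between 20890 and 39528 FPKM in the 12 libraries. Of the markers of the classical brown depot, Zic1 was listed at 0 in 11 libraries and Lhx8 did not exceed 0.571 FPKM, while the transporter Slc36a2 measured 66.3 to 117 FPKM. HFD mouse 12 and CLE mouse 11 stood apart. Their sum of 8 skin keratinocyte markers was 213 and 728 FPKM, against 1.10 to 21.7 FPKM in the other libraries, and their skeletal muscle markers summed to 15.6 and 24.8 FPKM, against 1.12 to 7.46 FPKM. Pvalb, a muscle marker that was called higher in HFD against ND (2.72), made up 5.79 to 6.82 FPKM of this sum in the HFD mice. A letter R of unstated meaning stands in the labels of 4 libraries (ND mice 3 and 4, mouse 4 of CLE, mouse 2 of LU) and in no HFD label.

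The 250 bases before the transcription start are shown for Ckb and Fgf21, which passed the test in opposite directions, and for Ucp1, the defining gene of thermogenic fat. They are RefSeq sequences (GRCm38.p6), written 5′ to 3′ on the strand of the gene, with motif matches in capitals. Ckb lies on the minus strand (promoter chr12:111672339-111672588), Fgf21 on the minus strand (chr7:45615491-45615740) and Ucp1 on the plus strand (chr8:83290098-83290347).
Ckb: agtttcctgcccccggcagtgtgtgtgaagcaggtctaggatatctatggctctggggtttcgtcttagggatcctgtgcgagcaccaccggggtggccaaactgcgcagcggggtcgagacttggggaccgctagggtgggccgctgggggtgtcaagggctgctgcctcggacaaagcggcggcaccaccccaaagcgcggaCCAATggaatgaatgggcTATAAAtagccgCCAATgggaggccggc
Fgf21: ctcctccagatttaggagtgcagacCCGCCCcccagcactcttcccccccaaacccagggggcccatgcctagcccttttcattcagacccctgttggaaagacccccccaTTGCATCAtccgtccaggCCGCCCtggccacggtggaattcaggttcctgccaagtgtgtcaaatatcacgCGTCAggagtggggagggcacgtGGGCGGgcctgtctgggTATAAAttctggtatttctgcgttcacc
Ucp1: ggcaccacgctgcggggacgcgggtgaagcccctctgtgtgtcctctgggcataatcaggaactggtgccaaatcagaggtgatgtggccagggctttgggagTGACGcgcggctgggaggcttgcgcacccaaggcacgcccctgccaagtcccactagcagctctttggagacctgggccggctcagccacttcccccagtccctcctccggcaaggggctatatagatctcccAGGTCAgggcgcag
The letters searched, on both strands, were TATAAA (the TATA box), CCAAT (the CCAAT box), GGGCGG (a GC box), TGACG (the core of the cAMP response element), AGGTCA (bound by many nuclear receptors) and TGATGNAA (the C/EBP-ATF response element). Ckb held TATAAA starting 28 bases before the start, and CCAAT at 46 and 16 bases. Fgf21 held TATAAA also at 28 bases, GGGCGG at 225, 121 and 45 bases, TGACG at 68 bases and TGATGNAA at 139 bases. In Ucp1, TGACG was found at 147 bases and AGGTCA at 14 bases. RefSeq sequences were searched for 6 of the 9 genes, without Elovl3, Cidea and Ppargc1b. In the 3 searched but not printed, Dio2 held TATAAA at 30 bases and TGACG on both strands at 95 and 92 bases, which overlap each other. Ppargc1a held TGACG at 49 bases, and Prdm16 held GGGCGG at 220 bases and CCAAT at 98 bases. No other matches overlapped. Of 32851 promoters of this length, 12.4% held TATAAA, 33.8% CCAAT, 32.7% GGGCGG, 17.8% TGACG, 14.0% AGGTCA and 3.45% TGATGNAA. TGACG was the motif found in the most of the 6 genes searched, in Ucp1, Dio2, Fgf21 and Ppargc1a.

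In HFD against ND, 1 of the 7 tested genes was called higher (Ckb) and 1 lower (Cidea), where 14.9% of all tested genes were called higher and 10.8% lower. In CLE against HFD, 1 gene was called lower (Ckb) and 0 higher, where 6.33% of all tested genes were called higher and 10.2% lower. Fgf21 missed the call by the fold limit alone in both comparisons. It was lower in HFD against ND (limma adjusted p = 0.0214) and higher in CLE against HFD (limma adjusted p = 0.0490). In LU against HFD, Fgf21 was the 1 gene called higher and Ckb the 1 called lower, where the shares over all tested genes were 4.79% and 7.65%. The median log2 fold change over the 7 genes was 0.00 in HFD against ND, 0.01 in CLE against HFD and -0.03 in LU against HFD, and that over all tested genes was -0.02, 0.01 and 0.03. The set therefore held genes that moved in opposite directions and had a median close to that of all genes. Among all 9 genes, the 3 HFD mice did not overlap the 3 ND mice for 5 genes, the CLE mice did not overlap the HFD mice for 4, and the LU mice did not overlap the HFD mice for 5. Over all tested genes, 59.5%, 50.6% and 47.7% did not overlap in these comparisons. Ucp1 and Dio2, which did not pass the filter, were among the genes without overlap in all 3 comparisons.

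**Figure D1:**
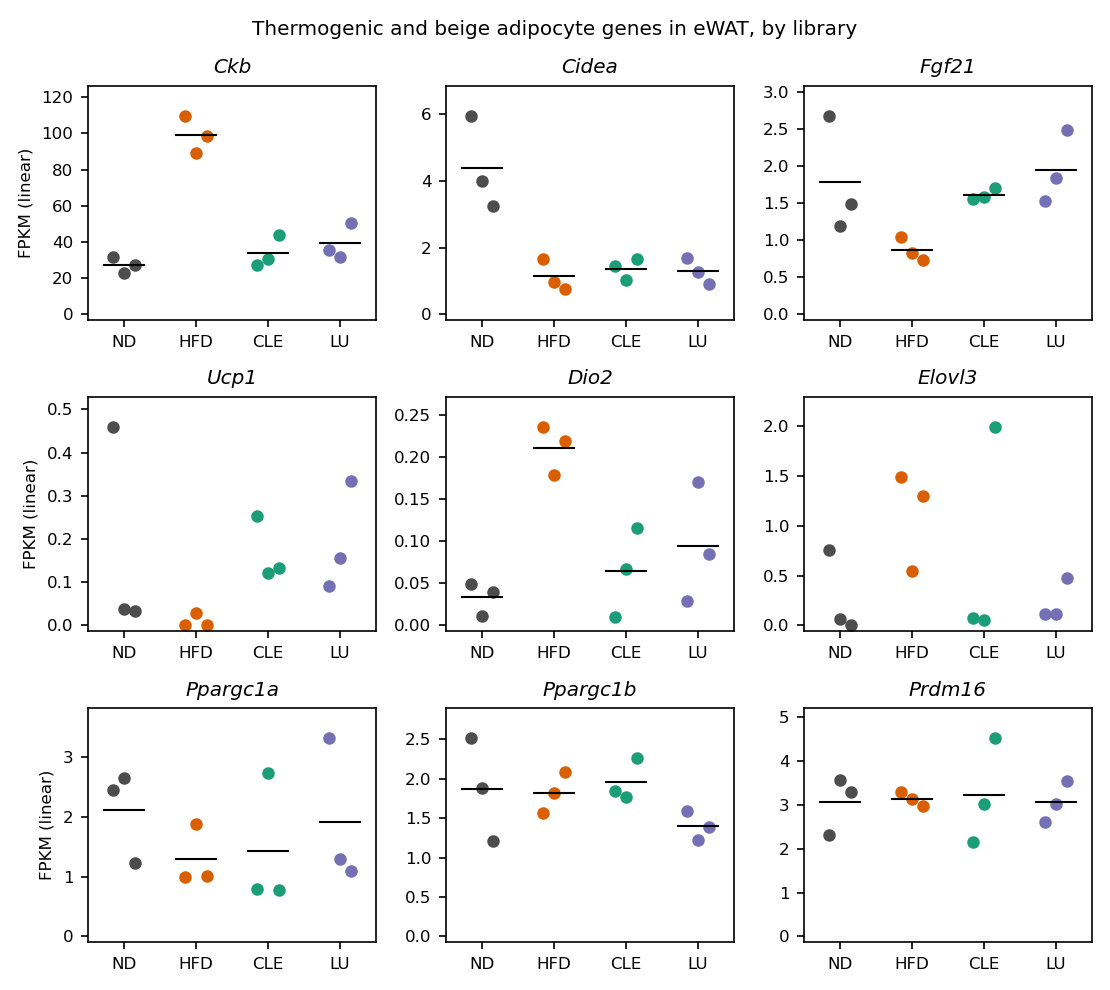
FPKM of the 9 genes (linear axes, 1 panel per gene) in the 12 libraries. Points are single mice and horizontal lines group means, which are left out for Ucp1 and Elovl3 because some libraries list them at 0. Ckb is between 89.1 and 110 FPKM in the 3 HFD mice and below 51 in the others, and Cidea is above 3 FPKM in the ND mice alone.

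Ckb, the brain-type creatine kinase, was the most abundant of the 9 genes and, of the 7 tested, the one with the largest differences from HFD on the log2(FPKM + 1) scale. It measured 31.7, 23.0 and 27.4 FPKM in ND mice 2, 3 and 4, and 110, 89.1 and 98.5 FPKM in HFD mice 12, 15 and 18. In the supplemented mice it measured 27.4, 30.5 and 43.8 FPKM (CLE mice 2, 4 and 11) and 35.6, 31.9 and 50.5 FPKM (LU mice 2, 3 and 8). All 3 HFD mice lay above every other mouse, while CLE and ND overlapped and the LU mice lay just above the ND mice. Group means were 27.4 ± 4.32 FPKM for ND, 99.1 ± 10.3 for HFD, 33.9 ± 8.76 for CLE and 39.3 ± 9.85 for LU (SD, n = 3 each). Ckb rose in HFD against ND by 1.83 on the log2 scale (SE 0.20, limma adjusted p = 2.14e-05). It fell by 1.54 in CLE against HFD (SE 0.20, adjusted p = 0.000168) and by 1.33 in LU against HFD (adjusted p = 0.000775). In the exact permutation test of 3 against 3 mice, each of these differences reached p = 0.1, the smallest two-sided value this design allows. Without HFD mouse 12 and CLE mouse 11 the changes were 1.75, -1.66 and -1.26, all called. Among libraries without the letter R they were 1.61, -1.48 and -1.28, with ND then represented by mouse 2 alone. CLE and LU differed by -0.21 (95% interval -0.64 to 0.23, adjusted p = 0.923), and neither differed from ND by the call. Its FPKM was split between the Ensembl transcript (53.2% of the mean) and an assembled variant of it (46.8%), and both were highest in the 3 HFD mice.

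Other genes of the creatine cycle moved with Ckb. Of 8 listed, 5 were tested, and 4 of these, Ckb included, were called higher in HFD against ND. Over all tested genes, 14.9% were called higher there. Gatm, which makes the creatine precursor, rose from 3.84 to 15.4 FPKM (1.77, adjusted p = 7.42e-07). Slc6a8, the creatine transporter, rose from 22.6 to 54.6 FPKM (1.24), and Alpl, a phosphatase of the cycle, from 1.58 to 3.28 FPKM (0.73). In CLE against HFD, Ckb, Gatm and Slc6a8 were called lower, at 5.62 FPKM for Gatm (-1.31) and 25.6 FPKM for Slc6a8 (-1.07). The same 3 genes were called lower in LU against HFD, at 6.95 FPKM (-1.04) and 25.9 FPKM (-1.06). Of all tested genes, 10.2% were called lower with CLE and 7.65% with LU. Gamt, the last enzyme of creatine synthesis, was not called in any of the 3 comparisons, at 19.2, 23.6, 22.0 and 21.7 FPKM in ND, HFD, CLE and LU. The mitochondrial kinases Ckmt1 and Ckmt2, and the muscle kinase Ckm, did not pass the filter. Ckm exceeded 0.1 FPKM only in HFD mouse 12 (1.43) and CLE mouse 11 (5.29), the libraries with skin and muscle markers.

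The Ckb level moved with macrophage markers. All 10 listed markers were called higher in HFD against ND and lower in both CLE and LU against HFD. The shares over all tested genes were 14.9%, 10.2% and 7.65%. Their sum was 328 to 496 FPKM in ND, 2907 to 3383 in HFD, 586 to 1028 in CLE and 960 to 1186 in LU. None of them was at 0 in any library. The adipocyte sum moved the other way, at 37796 to 39528 FPKM in ND, 20890 to 23278 in HFD, 30059 to 33913 in CLE and 28442 to 34153 in LU. The part of either cell type in the Ckb difference was not tested.

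**Figure D2:**
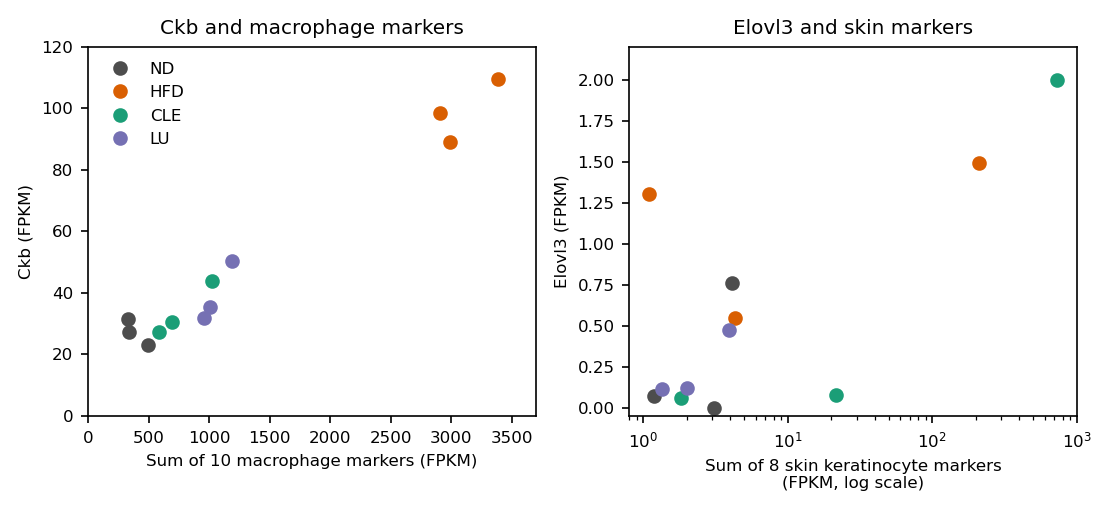
Left, Ckb (FPKM) against the sum of 10 macrophage markers (FPKM) per library; the 3 HFD mice are at upper right, with sums of 2907 to 3383 FPKM. Right, Elovl3 (FPKM) against the sum of 8 skin keratinocyte markers (FPKM, log scale); HFD mouse 12 and CLE mouse 11 are far to the right, and HFD mouse 18 has 1.30 FPKM of Elovl3 with a skin sum of 1.10 FPKM. Points are single mice, coloured by group as in the key.

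Ucp1 was close to the bottom of the scale in every group. It measured 0.460, 0.0370 and 0.0324 FPKM in ND mice 2, 3 and 4. In the HFD it was listed at 0 in mice 12 and 18, with 0.0296 FPKM in mouse 15. The 3 HFD mice thus lay below every other mouse. The CLE mice had 0.254, 0.120 and 0.134 FPKM and the LU mice 0.0920, 0.155 and 0.335 FPKM. Every CLE and LU mouse lay above every HFD mouse, with an exact permutation p of 0.1 in each comparison, the smallest possible. ND overlapped both CLE and LU. A listed 0 may be a failed estimate rather than a measured absence, since Scd1, an abundant gene of adipose tissue, was listed at 0 in 9 of the 12 libraries and at 8592 FPKM or more in the 3 HFD mice. The order of HFD below the other groups rests in part on these 2 values listed at 0. Against ND it also rests on 0.0296 FPKM in HFD mouse 15 against 0.0324 FPKM in ND mouse 4. No fold change is therefore given for Ucp1. With no filter on low values, its limma adjusted p was 0.278 in HFD against ND, 0.309 in CLE against HFD and 0.264 in LU against HFD.

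The other uncoupling proteins were far more abundant. Ucp2, which is widely expressed and high in macrophages, rose from 97.2 FPKM in ND to 395 in HFD (2.02, adjusted p = 2.71e-06), and fell to 160 in CLE (-1.31) and 181 in LU (-1.13). It remained called higher than ND in CLE (0.70) and LU (0.88). Ucp3, the muscle-enriched family member, fell from 52.3 to 18.7 FPKM in HFD against ND (-1.40, adjusted p = 5.04e-05), and rose to 38.7 in CLE (1.00) and 35.0 in LU (0.87). Ucp2 therefore moved like Ckb and Ucp3 opposite to it.

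Cidea fell on the HFD and was not called higher with either supplement. Its values were 5.94, 3.99 and 3.25 FPKM in ND mice 2, 3 and 4. They were 1.66, 0.981 and 0.770 FPKM in HFD mice 12, 15 and 18, then 1.44, 1.02 and 1.66 in the CLE mice and 1.69, 1.26 and 0.914 in the LU mice. All ND mice lay above all other mice, and the 3 HFD-fed groups overlapped. The fall in HFD against ND was -1.33 (SE 0.20, adjusted p = 0.000261). Against HFD, the difference was 0.16 (95% interval -0.28 to 0.61) in CLE and 0.11 (-0.34 to 0.55) in LU. Cidea was the 1 tested gene of the set called in CLE against ND (-1.16, adjusted p = 0.0148) and in LU against ND (-1.22, adjusted p = 0.00379). In those comparisons 2.07% and 4.97% of all tested genes were called higher, and 0.854% and 1.62% lower. Without HFD mouse 12 and CLE mouse 11, Cidea was not called in CLE against ND (-1.25, adjusted p = 0.0568). Cidec, the family member of white adipocyte droplets, stood at 3086, 1924, 3328 and 2754 FPKM in ND, HFD, CLE and LU. It fell in HFD against ND (-0.69) and, unlike Cidea, was called higher in CLE against HFD (0.79), a difference in LU (0.52, adjusted p = 0.00922) being under the fold limit. Whether Cidea and Cidec responded differently was not tested. Cideb did not pass the filter.

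Fgf21 was low in HFD and higher with both supplements, though called with luteolin alone. It measured 2.68, 1.19 and 1.49 FPKM in ND mice 2, 3 and 4, and 1.04, 0.833 and 0.740 FPKM in HFD mice 12, 15 and 18. The CLE mice had 1.56, 1.58 and 1.70 FPKM and the LU mice 1.52, 1.84 and 2.49 FPKM. All HFD mice lay below all others, and ND, CLE and LU overlapped. In HFD against ND the difference was -0.54 (SE 0.17, adjusted p = 0.0214), under the fold limit and so not called. It was -0.32 without ND mouse 2 (adjusted p = 0.0691), -0.53 without HFD mouse 15 (adjusted p = 0.0561) and -0.49 without HFD mouse 18 (adjusted p = 0.0692). In CLE against HFD it was 0.48 (adjusted p = 0.0490), also under the fold limit. In LU against HFD Fgf21 rose by 0.65 (SE 0.17, adjusted p = 0.0174), the only call of the 3. CLE and LU themselves differed by -0.16 (95% interval -0.54 to 0.22, adjusted p = 0.929). The LU call was lost without HFD mouse 15 (adjusted p = 0.0508), without HFD mouse 18 (adjusted p = 0.0615) and without LU mouse 8 (adjusted p = 0.0619), at differences of 0.63, 0.60 and 0.52. Without HFD mouse 12 and CLE mouse 11, Fgf21 was called in HFD against ND (-0.61, adjusted p = 0.0391) and LU against HFD (0.71), and the CLE difference was 0.53 (adjusted p = 0.118). In the fit with the letter R as a covariate, libraries with it differed for Fgf21 by -0.33 (limma unadjusted p = 0.0172, adjusted p over all genes = 0.9998). The 3 differences were then -0.76, 0.60 and 0.76, all called. The part of the letter in the Fgf21 values was not tested.

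Klb and the receptors Fgfr1 to Fgfr3 were called lower on the HFD, while Fgfr4, at 0.529 FPKM in ND and 0.0998 in HFD, did not pass the filter. Klb, the co-receptor through which it acts, went from 28.2 to 12.8 FPKM (-1.06), Fgfr1 from 116 to 75.5 (-0.61), Fgfr2 from 4.14 to 1.87 (-0.83) and Fgfr3 from 8.03 to 2.35 (-1.37). Of the list of receptors, related ligands and stress regulators, 8 of 10 genes were tested, with 5 called lower and 2 higher in HFD against ND. Over all tested genes, 10.8% were called lower and 14.9% higher there. The related ligand Fgf10 fell (20.8 to 8.20 FPKM, -1.24), Fgf1 rose (22.7 to 57.3, 1.36) and Ddit3, a transcription factor of the integrated stress response, rose (11.7 to 18.9, 0.64). CLE against HFD gave 4 higher, namely Klb (0.73), Fgfr2 (0.76), Fgfr3 (1.40) and Fgf10 (1.37), and 2 lower, Ddit3 (-0.66) and Fgf1 (-0.86). LU against HFD gave 3 higher, Fgfr2 (0.60), Fgfr3 (1.09) and Fgf10 (0.82), and 0 lower. The shares over all tested genes were 6.33% higher and 10.2% lower with CLE, and 4.79% and 7.65% with LU. Atf4, a regulator that binds the C/EBP-ATF response element, stood at 59.0, 54.9 and 50.4 FPKM in ND, HFD and CLE and was not called.

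Dio2, which converts thyroxine to its active form, was under 0.24 FPKM throughout. It measured 0.0496, 0.0110 and 0.0393 FPKM in ND, and 0.235, 0.178 and 0.218 FPKM in HFD. The CLE mice had 0.00998, 0.0674 and 0.115 FPKM and the LU mice 0.0289, 0.170 and 0.0849 FPKM. All HFD mice lay above all others, the direction of Ckb and opposite to that of Ucp1. With no filter on low values, the HFD difference from ND was 0.23 (adjusted p = 0.00852), that of CLE from HFD -0.19 (adjusted p = 0.0331) and that of LU from HFD -0.15 (adjusted p = 0.0938). None passed the fold limit, which values this low cannot reach on the log2(FPKM + 1) scale. As a ratio of means, HFD was 6.32 times ND, 3.28 times CLE and 2.23 times LU. Of 9 genes of thyroid hormone activation, 6 were tested. The thyroid hormone receptor Thra was the 1 called, lower in HFD against ND (78.0 to 45.5 FPKM, -0.76), where 10.8% of all tested genes were.

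Elovl3 varied widely within groups. It was 0.762 and 0.0699 FPKM in ND mice 2 and 3 and listed at 0 in ND mouse 4. HFD mice 12, 15 and 18 had 1.49, 0.549 and 1.30 FPKM. CLE mice 2, 4 and 11 had 0.0771, 0.0574 and 2.0 FPKM, and the LU mice 0.117, 0.118 and 0.473 FPKM. The LU mice lay below the HFD mice, and CLE mouse 11 had the highest value of all mice, with the other CLE mice below all HFD mice. Elovl3 is also expressed in skin, in sebaceous glands and hair follicles. CLE mouse 11 and HFD mouse 12, the libraries with the highest Elovl3, were those with skin markers. HFD mouse 18 had 1.30 FPKM with a skin sum of 1.10 FPKM, of which an assembled variant of Elovl3 made up 1.03 FPKM. This variant held 57.9% of the mean Elovl3 FPKM and the Ensembl transcript 42.1%. The Ensembl transcript measured 0.906 FPKM in HFD mouse 12, 1.09 in CLE mouse 11, 0.274 in HFD mouse 18 and at most 0.328 in the others. The part of skin in the Elovl3 values was not tested. No comparison was called with all libraries, at 0.75 (adjusted p = 0.111) for HFD against ND, -0.46 (adjusted p = 0.362) for CLE against HFD and -0.76 (adjusted p = 0.149) for LU against HFD. Without CLE mouse 11 alone, all 3 were called (0.75, -0.96 and -0.76). The differences of HFD from ND and of LU from HFD, which involve no CLE mouse, were then unchanged. Their SE fell from 0.37 to 0.23, because the fit pools the spread of all groups. Elovl3 reached 1 FPKM only in HFD mice 12 and 18 and CLE mouse 11, the 3 libraries that the filter requires. The filter was set on all libraries, so Elovl3 stayed in this fit though it would not pass without CLE mouse 11. With HFD mice 12 and 18 among these libraries, the filter favoured its calls in the comparisons with HFD. Without HFD mouse 12 and CLE mouse 11, the 3 differences were 0.61, -0.82 and -0.62 and not called. In its family, Elovl1 rose in HFD against ND (23.8 to 41.2 FPKM, 0.77) and fell in CLE against HFD (27.1 FPKM, -0.60). Elovl4, needed for the very long chain lipids of the skin barrier, was 5.74 FPKM in HFD mouse 12 and 6.66 in CLE mouse 11, and at most 0.218 in the others.

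The 3 transcriptional regulators were not called in any comparison. Prdm16, the determinant of brown and beige identity, was 2.31, 3.58 and 3.29 FPKM in ND and 3.30, 3.14 and 2.97 FPKM in HFD. It was 2.15, 3.03 and 4.54 FPKM in CLE and 2.61, 3.03 and 3.56 FPKM in LU, with all groups overlapping. Its differences were 0.04 (95% interval -0.36 to 0.45) in HFD against ND, 0.00 (-0.41 to 0.40) in CLE against HFD and -0.03 (-0.44 to 0.37) in LU against HFD. Of its FPKM, 8.88% lay in protein-coding Ensembl transcripts, the rest in processed and assembled ones. Ppargc1b was 2.52, 1.88 and 1.20 FPKM in ND, 1.57, 1.82 and 2.08 in HFD, 1.84, 1.76 and 2.25 in CLE and 1.58, 1.23 and 1.38 in LU. The CLE mice lay above the LU mice (0.30, 95% interval -0.03 to 0.63, adjusted p = 0.891), and the other groups overlapped. CLE against LU gave 0 calls among the 7 genes, where 0.00783% of all tested genes were called, and 0 of the 7 had an unadjusted limma p under 0.05.

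Ppargc1a, the coactivator induced by cold and adrenergic signals, was 2.44, 2.65 and 1.23 FPKM in ND mice 2, 3 and 4. HFD mice 12, 15 and 18 had 0.996, 1.89 and 1.01 FPKM. The CLE mice had 0.797, 2.72 and 0.783 FPKM and the LU mice 3.32, 1.30 and 1.10 FPKM. All groups overlapped, with CLE mouse 4 and LU mouse 2 well above the rest of their groups. The differences were -0.42 (95% interval -1.16 to 0.31) in HFD against ND, 0.01 (-0.72 to 0.75) in CLE against HFD and 0.28 (-0.45 to 1.02) in LU against HFD. The interval of CLE against HFD includes changes of 1.5-fold in both directions, and that of LU against HFD includes a rise of this size but not a fall. CLE mouse 4 and LU mouse 2 carry the letter R, as do ND mice 3 and 4. In the fit with the letter as a covariate, libraries with it differed for Ppargc1a by 0.59 (limma unadjusted p = 0.0366, adjusted p over all genes = 1.00). The difference of HFD from ND was then -0.033, and among libraries without the letter it was -0.60, with CLE and LU differing from HFD by -0.34 and -0.04. Much of these 2 high values lay in 1 Ensembl transcript of 488 bases, which held 26.6% of the mean Ppargc1a FPKM. It measured 1.47 FPKM in CLE mouse 4 and 2.31 in LU mouse 2. It also measured 0.904 FPKM in HFD mouse 15, 0.543 in ND mouse 3 and 0.152 in HFD mouse 18, and was listed at 0 elsewhere. The part of the letter in the 2 high values was not tested, nor were the groups compared without this transcript.

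Of 29 partners and targets of the PGC-1 coactivators and Prdm16, 28 were tested. HFD against ND gave 1 higher, where the share of all tested genes was 14.9%, and 3 lower, where it was 10.8%. The gene called higher was Perm1, a muscle regulator downstream of PGC-1 (0.265 to 2.51 FPKM, 1.47). Those called lower were Irf4, a partner of PGC-1α in thermogenic adipocytes (28.4 to 3.30 FPKM, -2.65), Thra (-0.76), and Ebf2, a determinant of brown and beige precursors (15.3 to 7.90 FPKM, -0.84). In CLE against HFD, Ebf2 was called higher (12.7 FPKM, 0.59) and Perm1 lower (0.602 FPKM, -1.18). In LU against HFD, Perm1 was the 1 gene called, lower (0.767 FPKM). The mean of Perm1 exceeded 1 FPKM, the level of the filter, in HFD alone, which may have favoured its calls in the comparisons with HFD. The shares of all tested genes called higher and lower were 6.33% and 10.2% with CLE, and 4.79% and 7.65% with LU. Irf4 stayed near its HFD level in CLE (4.06 FPKM) and LU (4.41 FPKM), and was called lower than ND in both (-2.44 and -2.35). Tle3, a corepressor that opposes Prdm16, was called higher in CLE against ND (61.8 to 101 FPKM, 0.70).

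**Figure D3:**
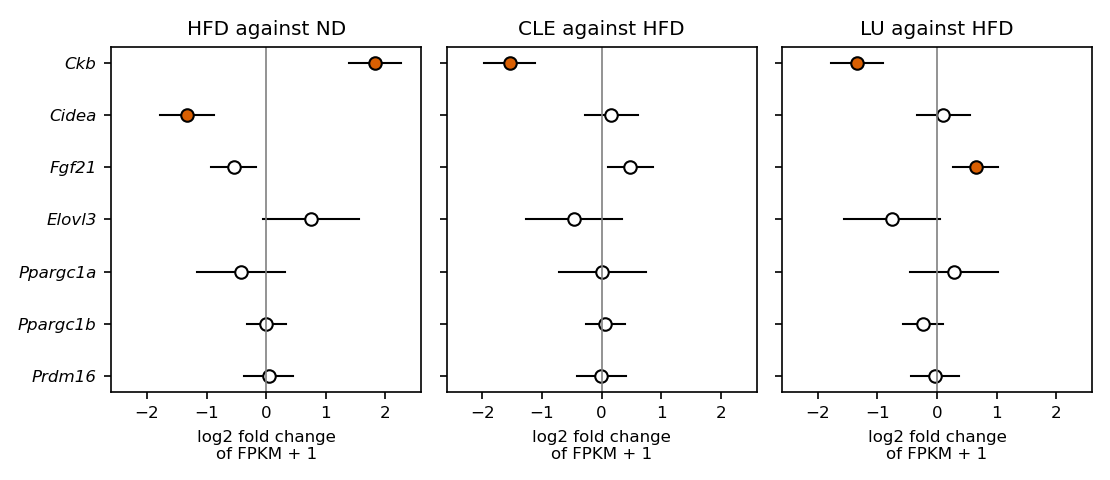
Log2 fold change of FPKM + 1 (point) with its 95% interval (line) for the 7 tested genes in 3 comparisons; filled points were called. Ckb is called in all 3, Cidea in HFD against ND and Fgf21 in LU against HFD, while the intervals of Prdm16, Ppargc1b and Ppargc1a include 0 in every panel.

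Other brown and beige adipocyte markers were divided in direction. Of 30 listed genes 20 were tested, of which 6 were called higher and 5 lower in HFD against ND. There were 5 higher and 6 lower in CLE against HFD, and 3 higher and 3 lower in LU against HFD. Over all tested genes, the shares higher and lower were 14.9% and 10.8%, 6.33% and 10.2%, and 4.79% and 7.65% in these comparisons. Among those lower on the HFD were Adrb3, the adipocyte β3-adrenergic receptor (641 to 97.3 FPKM, -2.73), Nrg4, a hormone secreted by brown fat (89.0 to 22.6 FPKM, -1.93), and the droplet protein Plin5 (5.84 to 2.91 FPKM, -0.80), with Ebf2 and Hoxc9 (1.72 to 0.483 FPKM, -0.85). Adrb3, Nrg4 and Plin5 were called higher with CLE (1.79, 1.57 and 0.97) and with LU (1.67, 1.08 and 0.69). Among those higher on the HFD were Otop1 (0.303 to 4.42 FPKM, 2.06), Acot11, a thioesterase (0.414 to 2.76 FPKM, 1.41), Fabp3, a fatty acid carrier (0.191 to 1.62 FPKM, 1.12), Cpt1b, the muscle-type carnitine transferase (0.871 to 2.99 FPKM, 1.08), the glycerol kinase Gk (0.81) and Epsti1 (0.76). Otop1, Acot11 and Fabp3 were called lower with CLE (-1.54, -1.14 and -1.27) and with LU (-1.35, -0.91 and -1.10). Fabp3 reached 1 FPKM only in the 3 HFD mice. Acot11 reached it in 4 libraries and Otop1 in 5, the HFD mice among them in each case. These 3 genes passed the filter only with the group where they were high, which favoured their calls against HFD. Hoxc9 likewise passed only with the ND mice, which favoured its call in HFD against ND. Cpt1b, Gk and Epsti1 were called lower with CLE alone (-1.14, -0.83 and -0.69), as Eva1a (0.74) and Ebf2 (0.59) were called higher with CLE alone, but no difference between CLE and LU was called. Cox8b, a brown fat cytochrome oxidase subunit, was at 13.7 to 28.3 FPKM in the 12 libraries and not called.

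Of the adrenergic signal that drives thermogenesis, all 22 listed genes were tested, with 7 called lower and 1 higher in HFD against ND, where 10.8% and 14.9% of all tested genes were. Besides Adrb3, the receptor Adrb1 (4.84 to 1.05 FPKM, -1.40) fell, as did the kinase Sik2 (205 to 74.6 FPKM, -1.44), the phosphodiesterase Pde3b (173 to 68.6 FPKM, -1.30) and the cyclase Adcy4 (-1.05), whereas the cyclase Adcy3 rose (12.1 to 21.3 FPKM, 0.79). With CLE, 6 genes were called higher (6.33% over all tested genes) and 0 lower, namely Adrb3, Adcy4 (1.17), Sik2 (1.06), Pde3b (0.90), Adcy5 (0.75) and Pde4b (0.73). With LU, 5 were called higher (4.79% over all tested genes) and 0 lower, Adrb3, Adcy4 (1.01), Sik2 (0.77), Pde4b (0.73) and Pde3b (0.67). Adipocyte markers moved the same way, with 8 of 10 called lower and 1 higher in HFD against ND, 8 higher and 1 lower with CLE, and 4 higher and 1 lower with LU, at mean sums of 38620, 21690, 31846 and 30942 FPKM in ND, HFD, CLE and LU. Their part in these counts was not tested. Adrb3 was 593, 749 and 581 FPKM in ND, 82.4, 127 and 82.3 in HFD, 438, 241 and 344 in CLE, and 295, 459 and 208 in LU. Its groups HFD and ND did not overlap with any other group. It was called lower in LU than in ND (-1.06, adjusted p = 0.0333), and not in CLE (-0.94, adjusted p = 0.0786). Of 8 genes of calcium cycling, another futile cycle, 2 passed the filter. The pump Atp2a3 stood at 32.7 FPKM in ND and 29.0 in HFD, and was called higher in CLE (58.0 FPKM, 0.98) and LU (53.6 FPKM, 0.87).

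The genes whose pattern over the 12 libraries was most like each tested gene were found by Pearson's r on log2(FPKM + 1). They share the libraries and groups and are given as a description. For Ckb they were Sel1l3 (0.996), Galnt12 (0.994) and Hmga1 (0.992). For Cidea they were Fbxo11 (0.938), Zfp397 (0.936) and Irf4 (0.933), the last of which, like Cidea, was high in ND alone. For Fgf21 they were Rilpl1 (0.945), Cep170b (0.927) and Pdzrn3 (0.921), and for Elovl3 Zbtb18 (0.923), Nop2 (0.883) and Vrk3 (0.882). The regulators had weaker likenesses, with AI987944 (0.907), Aff3 (0.876) and Kdm2a (0.871) for Ppargc1a, Them6 (0.896), Rnf31 (0.860) and Zfp511 (0.817) for Prdm16, and Stim2 (0.787), Ipo9 (0.780) and Ctcf (0.775) for Ppargc1b. Sel1l3 measured 3.51 to 4.78 FPKM on the HFD and no more than 1.41 FPKM in any other mouse, so that, like Ckb, it was highest in all 3 HFD mice.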

How the data were processed

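mRNA libraries of eWAT from 12 mice (paired-end reads, TruSeq kit) were processed by the authors with CASAVA 1.8.2, Bowtie2 2.2.3, TopHat2 2.0.12 and Cufflinks 2.2.1, per the submitters' processing notes, and quantified with Cuffdiff, per the study's methods. The authors deposited FPKM for 152210 transcripts. The table has 15 columns of FPKM, of which 3 belong to none of the samples and were left out. The column headed MD4 was taken for ND mouse 4, from its number and letter R. The header of the authors' ND against HFD comparison also lists it with the ND columns. The values in the authors' own comparison columns (fold changes and calls) were not used.

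Rows were assigned to a gene by its symbol where the transcript was an Ensembl one, plain or with class code = or j, and summed. Positions and transcript types were from GENCODE M21 (GRCm38), in which 77000 of 78786 known transcripts were found. Reads were not recovered from the FPKM, and no count test was run. The test was limma 3.58.1 (R 4.3.3) on log2(FPKM + 1), with no covariate and no trend, after a filter of 1 FPKM in 3 libraries, and called genes at adjusted p under 0.05 and fold over 1.5. It was tested on simulated data. Exact permutation tests (scipy 1.17.1) were two-sided. Python 3.11.15, pandas 2.3.3, numpy 2.4.6 and matplotlib 3.10.9 were used. The mouse numbers are names only and share no animal between groups. The correlation of deviations between libraries that share a number was -0.10 to 0.19.

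The genes, the lists and the tests were chosen with earlier results of these data known. The skin list and the alternative without HFD mouse 12 and CLE mouse 11 were added after seeing the values. The genes named from the lists were the called ones, up to 6 per list and comparison, by size of change. The markers Acta1 and Tubb3 were not analysed here. Of the genes this rule names, 1 is not reported here. The labels name separate mice, and limma p-values measure the spread between these 3 per group, pooled over all groups in the fit.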

Additional observations from a re-analysis of the deposited data

How the results depend on the processing

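Ckb was called with the same direction under all alternatives tried in the 3 comparisons with HFD, as was Cidea in HFD against ND where it passed the filter. For the counts and genes that moved, given here, the cause was not tested. Depth is unknown, so counting error could not be set against any of these values. With libraries HFD mouse 12 and CLE mouse 11 left out, a choice made after seeing the data, CLE against ND gave 19 genes higher and 10 lower, against 264 and 109 with all libraries, and 0 of the 9 genes lower.

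A filter on a mean of 5 FPKM left 1265 genes higher in HFD against ND, 825 lower in CLE against HFD and 644 lower in LU against HFD, and none of the 9 genes (0) was then called lower in HFD against ND, higher in LU against HFD, or lower in CLE or LU against ND. By the adjusted p alone, with no limit on fold, 3277 genes were higher and 3165 lower in HFD against ND, 1981 and 2313 in CLE against HFD, 1687 and 1740 in LU against HFD, 418 and 243 in CLE against ND, and 1109 and 526 in LU against ND. CLE against ND gave 170 genes higher and 66 lower with no filter, 0 and 0 with only these groups fitted, 166 and 58 with plain identifiers and class code = only, and 153 and 54 with the transcript of the highest mean. It gave 103 higher among libraries without the letter R. The 1 gene lower in CLE against LU became 0 under pseudocount 0.1, both filters, scaling by median ratios, quantile normalization, only the 2 groups, moderation with trend, the letter R as covariate, both choices of transcripts, and without the libraries with skin markers.

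Of the 9 genes, 2 were higher in HFD against ND with only these groups fitted or with array weights, Elovl3 being added (0.75 and 0.87). Fgf21 made the lower count in HFD against ND 2 under pseudocounts 0.1 and 0.5, quantile normalization, the letter R as covariate, adjusted p alone, libraries without R, and without the skin libraries, whereas its adjusted p in this comparison was over 0.05 without ND mouse 2, HFD mouse 15 or HFD mouse 18. Fgf21 also made the higher count in CLE against HFD 1 under both pseudocounts, the covariate and adjusted p alone. Elovl3 made the lower count in LU against HFD 2 with only these groups, where Cidea was no longer called in CLE against ND (0). Elovl3 passed the filter, which was set on all 12 libraries, only through HFD mice 12 and 18 and CLE mouse 11.

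Differences near 0 changed sign. In HFD against ND, Ppargc1b was -0.080 with quantile normalization, -0.10 with the covariate, -0.0041 with the replicate block and -0.32 without R, and Prdm16 -0.026 with quantile normalization and -0.014 with array weights. In CLE against HFD, Ppargc1a was -0.037 and -0.0021 under the pseudocounts, -0.18 with the covariate, -0.22 with plain identifiers and -0.34 without R. Ppargc1b was -0.020 with plain identifiers and -0.074 without the skin libraries, and Prdm16 0.0091 scaled to equal totals, 0.033 with quantile normalization, 0.0056 with the replicate block and 0.014 without R. In LU against HFD without R, Cidea was -0.016, Ppargc1a -0.042 and Prdm16 0.052. In CLE against LU, Cidea was -0.027 with array weights and -0.032 without the skin libraries. Fgf21 was 0.0080 in CLE against ND with array weights, and in LU against ND -0.0061 with the covariate and -0.22 without R.

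Leaving out 1 library at a time, 1 to 2 of the 9 genes were higher and 1 to 2 lower in HFD against ND, 1 to 2 lower in CLE against HFD, and 0 to 1 higher and 1 to 2 lower in LU against HFD. Of all genes, 0 to 1 were lower in CLE against LU, 81 to 368 higher and 40 to 130 lower in CLE against ND, and 129 to 238 lower in LU against ND. Ppargc1b ranged from -0.18 to 0.16 and Prdm16 from -0.10 to 0.13 in HFD against ND. In CLE against HFD, Ppargc1a ranged from -0.34 to 0.19, Ppargc1b from -0.0071 to 0.13 and Prdm16 from -0.21 to 0.19. In LU against HFD, Cidea ranged from -0.017 to 0.28, Ppargc1a from -0.042 to 0.48 and Prdm16 from -0.12 to 0.052. In CLE against LU, Cidea ranged from -0.067 to 0.18 and Ppargc1a from -0.62 to 0.057. Fgf21 ranged from -0.21 to 0.16 in CLE against ND and from -0.050 to 0.32 in LU against ND.

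The mouse numbers share no animal, and the replicate block on them, with a consensus correlation of 0.09, called 1879 genes higher and 1362 lower in HFD against ND. It called 790 and 1297 in CLE against HFD, 625 and 971 in LU against HFD, 288 and 123 in CLE against ND, and 657 and 220 in LU against ND, and gave the same counts of the 9 genes.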
